A study of Homo sapiens with 6 samples.

Results

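The genes described here are BIRC2 and the other inhibitors of apoptosis (IAPs), together with DIABLO, the mitochondrial protein that antagonises them. The members were the transcripts whose gene symbol was BIRC2, BIRC3, XIAP, BIRC5, BIRC6, BIRC7, NAIP or DIABLO. These 8 symbols covered 9 gene identifiers, because DIABLO was attached to 2, and 77 transcripts, out of 40173 genes and 151453 transcripts with a gene. All 9 genes and 40 of the 77 transcripts passed the filter on low counts, which left 19987 genes and 66609 transcripts. The members were picked with the difference between MOCK and CYGB cells already known, so their differences are given as descriptions, with an interval but no test.

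The libraries came from HCT116, an established human colorectal cancer cell line, and were sequenced as paired-end RNA-seq in 6 libraries. The 3 MOCK libraries, labelled wild type, were from cells that received a MOCK control lentivirus, and the 3 CYGB libraries, labelled CYGB overexpression, were from cells that received a lentivirus with the coding region of cytoglobin, a globin that binds oxygen, fused with FLAG. Both groups were transduced and drug-selected stable cultures, with the same passage range in their labels, and the CYGB cells express the transgene constitutively; whether the 3 biological replicates of a group came from separate transductions is not given in the sources used here. CYGB, the targeted gene, was at 0.467 ± 0.231 CPM in MOCK and 617 ± 73.4 CPM in CYGB cells (SD, n = 3), with every CYGB library far above every MOCK library. CPM are normalised read counts, divided by a library size that was scaled by the TMM method and set to the usual common total in every library.

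IAPs share a small zinc-binding fold, the baculovirus IAP repeat, and several of them also carry a RING domain that attaches ubiquitin to target proteins. BIRC2 and BIRC3 (cIAP1 and cIAP2) are ubiquitin ligases of the TNF receptor complex and, with TRAF2 and TRAF3, keep the NF-kappaB-inducing kinase MAP3K14 low, whereas XIAP binds and blocks caspases directly. DIABLO is released from mitochondria during apoptosis and occupies the IAP repeats, and BIRC5 (survivin) works mainly in cell division.

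BIRC2 lies on chromosome 11 (GRCh38, chr11:102347211-102378670, plus strand), next to BIRC3, and 12 of its annotated transcripts were in the table. Its transcripts are told apart by a few junctions between exons, and those below separate the transcripts that held most of the gene's counts. The choice of these transcripts was made after the counts had been seen. Each line gives 30 bases, with the last 15 bases of the exon before the junction in lower case and the first 15 bases of the exon after it in capitals, from GENCODE 29 transcripts.
ENST00000227758, exons 1 and 2: tgcgcccgcactgcgATTTACAACCCTGAA
ENST00000613397, exons 1 and 2: ctgggaaattattggATTTACAACCCTGAA
ENST00000532672, exons 2 and 3: gttttcagaaagaagACTTTTCCCAGGTCC
ENST00000530675, exons 1 and 2: tgcgcccgcactgcgAATGTCTACATATTC

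The first and second of these junctions enter the same exon, at position 102348598 of chromosome 11, from first exons that end at 102347376 and 102347845. The first is present in 4 BIRC2 transcripts of the table and the second in 3, so neither belongs to a single transcript. The third and the fourth each occur in 1 BIRC2 transcript of the table. The third junction joins position 102348764 to 102349878, and so enters the exon downstream of the start codon that ENST00000227758 uses at 102349855. The fourth skips further, to 102350001. ENST00000227758 has 3743 bases, 9 exons and a reading frame of 618 codons, and ENST00000613397, of 4066 bases, has a reading frame of the same length. The annotated frame of ENST00000532672 has 597 codons and starts 21 codons later, and that of ENST00000530675 has 569 codons. The stretch that separates the first 2 starts, chr11:102349855-102349920, is shown with both start codons in capitals.
ENST00000227758, start of the reading frame: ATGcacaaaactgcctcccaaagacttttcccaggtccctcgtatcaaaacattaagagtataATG

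Summed over its transcripts, BIRC2 was lower in CYGB than in MOCK cells. The 3 MOCK libraries held 72.5, 83.4 and 93.4 CPM, and the 3 CYGB libraries held 39.6, 34.1 and 40.4 CPM. The groups did not overlap, and the highest CYGB library lay well below the lowest MOCK library. The means were 83.1 ± 10.4 CPM in MOCK and 38.0 ± 3.46 CPM in CYGB cells (SD, n = 3), and the log2 fold change of CYGB over MOCK was -1.13 with a standard error of 0.13 and a 95% interval from -1.45 to -0.81. In raw counts these values were 3427, 4405 and 4807 in MOCK against 2000, 1731 and 2123 in CYGB libraries. BIRC2 and the second DIABLO identifier (below) were the 2 of 9 member genes past the threshold that the study's methods give, an unadjusted p of at most 0.01 with a ratio of at least 2 or at most 0.5. Over all genes tested, 0.565% were past it, 0.285% with lower and 0.280% with higher values in CYGB cells. No member had an adjusted p under 0.05, where 0.0550% of all genes had one (edgeR quasi-likelihood test with Benjamini-Hochberg adjustment; 3 members had an unadjusted p under 0.05, against 4.54% of all genes, and DESeq2 gave 2 members an adjusted p under 0.05). Since this contrast chose the members, nothing is read from these counts. In bulk samples such as these, fewer cells with a transcript and less RNA per cell cannot be told apart.

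**Figure D1:**
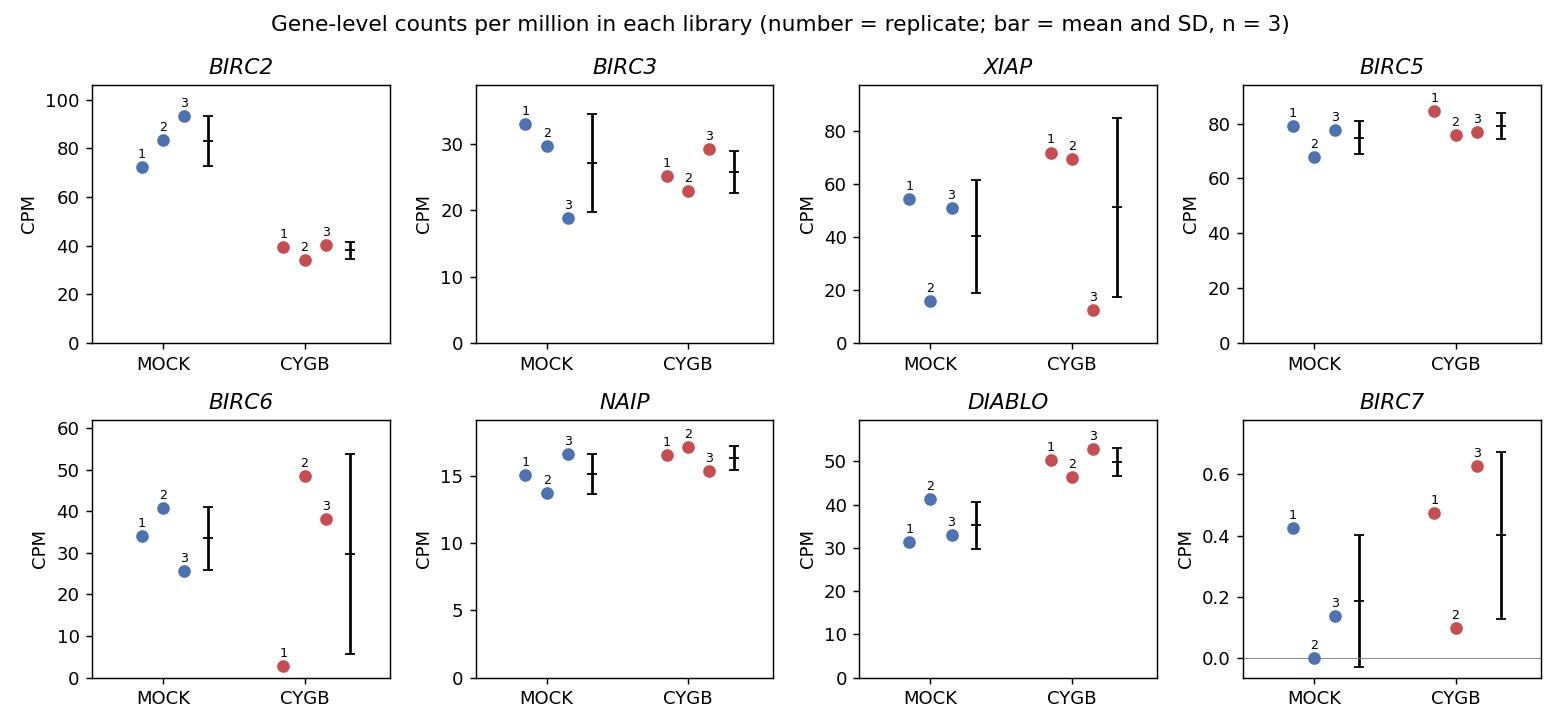
CPM of each gene in each library, by group; points are libraries, numbers are replicates, and the bar is the mean with its SD (n = 3). The CYGB points of BIRC2 lie below its MOCK points and those of DIABLO above, XIAP has 1 low library in each group and BIRC6 has 1 low CYGB library, and DIABLO is drawn for its main identifier.

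The transcripts of BIRC2 differed among the CYGB libraries. ENST00000227758 held 3390, 4356 and 4733 counts in the MOCK libraries, which was 98.9%, 98.9% and 98.5% of the gene. In the CYGB libraries it held 186, 439 and 2035 counts, and only in the third of these was it again the main transcript, with 95.9% of the gene. The MOCK libraries were thus uniform in this respect, and the CYGB libraries were not. In the first CYGB library ENST00000532672, with the later start codon, held 1543 counts, or 77.2% of the gene. It had 0 counts in each of the other 5 libraries. ENST00000530675 behaved in the same manner, with 212 counts in the first CYGB library and 0 in the others. In the second CYGB library ENST00000613397, with the alternative first exon, held 962 counts, or 55.6% of the gene, again against 0 in every other library. ENST00000527910, a transcript of 4073 bases with no annotated reading frame, held 263 counts there and at most 1 count elsewhere. A count of 0 allows up to 3 counts, which was 0.0572 to 0.0627 CPM in these libraries.

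The remaining BIRC2 transcripts were at low counts. ENST00000527808, a processed transcript without an annotated frame, had 19, 21 and 13 counts in MOCK and 19, 30 and 15 in CYGB libraries. ENST00000534130, which retains an intron, had 9, 11 and 20 counts in MOCK and 13, 36 and 12 in CYGB libraries. These values overlapped between groups, as did those of ENST00000621637, which had 1, 0 and 19 counts in MOCK and 1, 0 and 28 in CYGB libraries. ENST00000534646 had 1, 16 and 22 counts in MOCK and 5, 1 and 3 in CYGB libraries, and ENST00000533742 had 21, 0 and 15 counts in CYGB libraries and 0 in MOCK. ENST00000532832 and ENST00000527465 did not exceed 8 counts in any library.

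Only 3 BIRC2 transcripts passed the filter on low counts. Their log2 fold changes were -2.25 for ENST00000227758, 0.27 for ENST00000527808 and 0.61 for ENST00000534130. No BIRC2 transcript was past the threshold of the methods, and neither was any of the 40 member transcripts tested, where 1.02% of all transcripts were (edgeR quasi-likelihood test; 3 of the 40 had an unadjusted p under 0.05, against 3.78% of all transcripts, and 2 were past the threshold with DESeq2). The groups did not overlap for 5 of the 40, or for 10.4% of all transcripts tested.

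**Figure D2:**
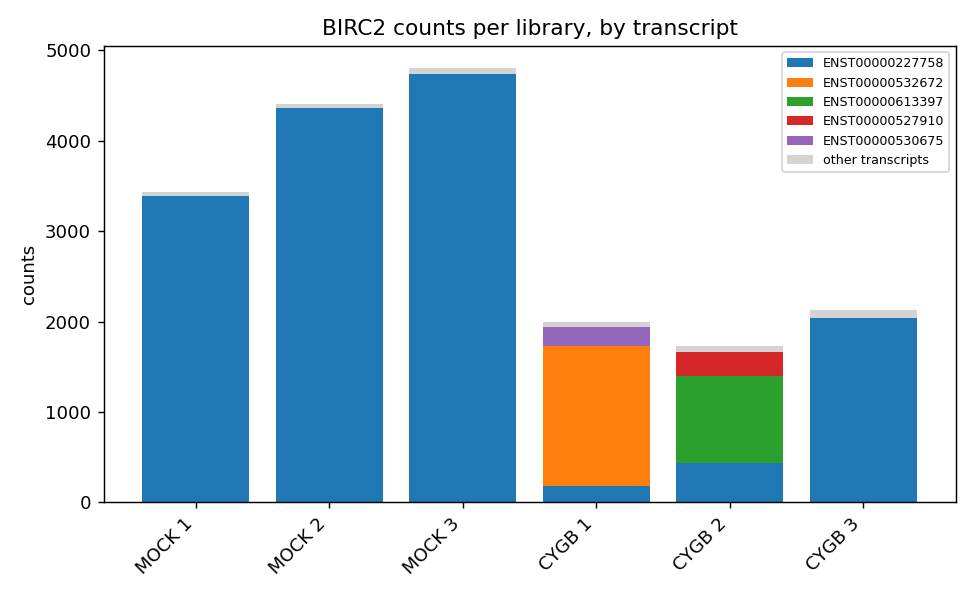
Raw counts of BIRC2 in each library, stacked by transcript, with the 5 transcripts of the highest total in colour and the others in grey. ENST00000227758 fills the bars of the 3 MOCK libraries and of the third CYGB library, whereas other transcripts lead in the first and second CYGB libraries, and the CYGB bars are lower as a whole.

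The transcripts were then grouped by their reading frame. The 2 transcripts with the frame of 618 codons had 3390, 4356 and 4733 counts in MOCK libraries, against 186, 1401 and 2035 under CYGB. This was 9.30% of the gene in the first CYGB library, 80.9% in the second and 95.9% in the third. The 6 transcripts with a shorter annotated frame held 88.9% of the gene in the first CYGB library, 0 counts in the second and 2.73% in the third. The 4 transcripts without a frame held 19.1% of the gene in the second CYGB library and 0.846% to 1.85% in the other 5. The 8 transcripts with any annotated coding region had 1963, 1401 and 2093 counts in CYGB libraries, against 3398, 4356 and 4752 under MOCK, and the groups did not overlap.

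Some of these assignments rest on few bases. None of the stretches of 150 bases, the read length of the study, that occur in ENST00000227758, ENST00000613397 or ENST00000527910 was absent from every other BIRC2 transcript of the table. In ENST00000532672 the share of such stretches of its own was 5.88% and in ENST00000530675 it was 8.27%. This measure takes single reads, not pairs, and sets each transcript against all others at once. ENST00000613397 and ENST00000527910 share the first exon that ends at 102347845, also with ENST00000621637. That of ENST00000227758 ends at 102347376, so the 2 kinds of first exon are told apart by more bases than the measure shows. How reads were divided among transcripts is not given in the sources used here. A change of the leading transcript between libraries was frequent in the table. Of 14866 tested genes with at least 2 transcripts, 55.9% had the same leading transcript in all 6 libraries and 12.8% had 3 or more, as BIRC2 did. These shares required no minimum level beyond the filter and no minimum lead. In BIRC2 the leading transcript held 98.5% to 98.9% of the gene in MOCK libraries, so the comparison is a loose one. The part of the change of transcript in the gene-level difference of BIRC2 was not tested.

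A further property of the table bears on a lower sum. Of its transcripts, 21225 were assembled without a gene or a position, and 76 of these differed between the groups without overlap, in the opposite direction to BIRC2 and by 0.5 to 1.5 times its difference in CPM. None of these 76 can be placed in or outside BIRC2, and their part in its difference was not tested. By the same rule, applied to the difference of each member, the count ran from 71 for BIRC7 to 253 for BIRC6. It was 189 for BIRC3, so such a count was not particular to BIRC2.

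BIRC3, the paralogue of BIRC2 that lies 7.82 kb upstream (chr11:102317450-102339394, plus strand), did not show such a difference. It held 33.0, 29.6 and 18.9 CPM in MOCK and 25.2, 22.9 and 29.3 CPM in CYGB libraries. The groups overlapped, with the lowest value in the third MOCK library. The log2 fold change was -0.08 with a 95% interval from -0.64 to 0.49. One transcript, ENST00000263464, held 90.5% to 99.0% of the gene in all 6 libraries. ENST00000615299, the second by count, had 6, 13 and 30 counts in MOCK and 120, 34 and 5 in CYGB libraries.

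In CPM, BIRC2 divided by BIRC3 was 2.20, 2.81 and 4.95 in MOCK and 1.57, 1.49 and 1.38 in CYGB libraries, without overlap. Both cIAPs summed to 110 ± 4.09 CPM in MOCK against 63.8 ± 6.43 CPM in CYGB cells (SD, n = 3). The ratio and the sum restate the values of these genes given above and add no separate result.

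XIAP, the direct caspase inhibitor (chrX:123859724-123913979, plus strand), varied more within the groups than between them. Its values were 54.1, 15.8 and 50.9 CPM in MOCK and 71.8, 69.3 and 12.3 CPM in CYGB libraries. One library of each group, the second MOCK and the third CYGB library, stood at 0.291 and 0.227 of the median of the other 5. The log2 fold change was 0.34 with a 95% interval from -1.46 to 2.15, so a difference in either direction could not be resolved. Without these 2 libraries, an alternative chosen after the values were seen, it was 0.43. Low libraries of this kind, with a CPM more than 3 times below the median of the others, were present in 6.70% of the 9947 tested genes averaging at least 10 CPM.

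The transcripts of XIAP also differed among the libraries, and only in part along with its level. ENST00000355640 held 2234, 0 and 2272 counts in MOCK and 3122, 6 and 284 in CYGB libraries. ENST00000371199 held 254, 432 and 269 counts in MOCK and 281, 2065 and 296 in CYGB libraries, and ENST00000434753 held 0, 296 and 0 against 116, 1408 and 0. The second CYGB library, with a high level, and the second MOCK library, with a low one, both held mainly ENST00000371199 and ENST00000434753. All 3 have a reading frame of the same length, 497 codons. Of their stretches of 150 bases, 3.24%, 2.48% and 0.798%, in this order, were in no other XIAP transcript of the table. XIAP-AS1, which overlaps XIAP on the other strand, had at most 9 counts in any library.

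BIRC5, which anchors the chromosomal passenger complex in mitosis (chr17:78214186-78225636, plus strand), had the narrowest interval of all the members. It held 79.2, 67.9 and 77.7 CPM in MOCK and 84.7, 75.9 and 77.1 CPM in CYGB libraries. The groups overlapped. The log2 fold change was 0.08 and its 95% interval ran from -0.16 to 0.32. ENST00000350051 led in every library, with 55.6% to 70.1% of the gene, and ENST00000301633 held 669 to 916 counts. ENST00000590449 was uneven, with 695 counts in the first MOCK library, above the 669 of ENST00000301633 there, and 125 to 306 in the others.

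BIRC6, a very large ubiquitin-conjugating IAP (chr2:32357028-32618899, plus strand), had 34.1, 40.8 and 25.7 CPM in MOCK and 2.71, 48.4 and 38.2 CPM in CYGB libraries. The first CYGB library stood at 0.0709 of the median of the other 5, and the other CYGB values lay within or above the MOCK values. The log2 fold change was -0.17 with a 95% interval from -2.32 to 1.98. Most of the counts belonged to ENST00000471232, a transcript of 4226 bases that retains an intron and has no annotated frame. It held 1019, 1454 and 1261 counts in MOCK and 25, 1703 and 1268 in CYGB libraries. ENST00000421745, of 15703 bases and 4857 codons, held 514, 626 and 0 counts in MOCK and 0, 645 and 702 in CYGB libraries. The full-length transcript of BIRC6 was thus at 0 in 1 library of each group. In the first CYGB library, the leading transcript was ENST00000465130, with 49 of 137 counts.

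NAIP, the IAP that senses bacterial proteins for the NLRC4 inflammasome (chr5:70968483-71024687, minus strand), held 15.1, 13.7 and 16.7 CPM in MOCK and 16.6, 17.1 and 15.3 CPM in CYGB libraries. The groups overlapped, and the log2 fold change was 0.11 with a 95% interval from -0.21 to 0.43. The intron-retaining ENST00000315147 held 74.6% to 86.8% of the gene in all libraries. ENST00000517649, a protein-coding transcript, had 0, 95 and 117 counts in MOCK and 116, 91 and 96 in CYGB libraries, and ENST00000508426 had 123 counts in the first MOCK library and 0 elsewhere. NAIP lies in a duplicated region with near-identical copies, and reads shared with these make its level uncertain.

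BIRC7 (livin), an IAP known from melanoma and fetal tissue (chr20:63235883-63240507, plus strand), was close to the floor. It had 20, 0 and 7 counts in MOCK and 24, 5 and 33 in CYGB libraries. The values overlapped between the groups, the 0 of the second MOCK library allows up to 3 counts, and a difference was not detectable at this depth, with a log2 fold change of 1.11 and a 95% interval from -1.80 to 4.03.

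DIABLO, the IAP antagonist (chr12:122207663-122226568, minus strand), was higher in CYGB cells at the level of the gene. Its main identifier, ENSG00000184047, held 31.2, 41.4 and 33.0 CPM in MOCK and 50.3, 46.5 and 52.8 CPM in CYGB libraries. The groups did not overlap. The means were 35.2 ± 5.41 and 49.9 ± 3.19 CPM (SD, n = 3), and the log2 fold change was 0.50 with a 95% interval from 0.16 to 0.84, short of the ratio of 2. DIABLO, its second identifier and BIRC2 were the 3 of 9 member genes without overlap between groups, where 11.0% of all genes tested had none.

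The counts behind the higher DIABLO sum belonged to different transcripts in different libraries. ENST00000489781, which retains an intron, had 229, 400 and 211 counts in MOCK and 52, 1338 and 1395 in CYGB libraries. ENST00000540535, annotated as a target of nonsense-mediated decay, had 1659 counts in the first CYGB library and 0 in the other 5. ENST00000267169, a protein-coding transcript, had 437, 291 and 501 counts in MOCK and 269, 283 and 444 in CYGB libraries, which overlap.

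Taken over the 10 DIABLO transcripts with an annotated coding region, the counts were 758, 1223 and 1304 in MOCK and 2327, 645 and 966 in CYGB libraries. This class includes targets of nonsense-mediated decay. Of its 2327 counts in the first CYGB library, 1659 were of ENST00000540535, with a frame of 74 codons. The tested protein-coding transcripts overlapped between groups. Their log2 fold changes were -0.32 (ENST00000267169), -0.92 (ENST00000353548), -0.58 (ENST00000464942) and 0.18 (ENST00000439489). The 5 transcripts without an annotated coding region held 718, 963 and 394 counts in MOCK and 216, 1716 and 1806 in CYGB libraries. Both classes overlapped between groups, so that the separation was seen in the sum and not in either class. DIABLO also overlaps B3GNT4 on the other strand, which had 711 to 810 counts in MOCK and 603 to 972 in CYGB libraries, and the strand setting of the counts is not given in the sources used here.

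The second DIABLO identifier, ENSG00000284934, overlaps the first on the same strand and held 2, 1 and 3 counts in MOCK against 15, 222 and 34 in CYGB libraries. The fitted log2 fold change was 5.40 with a 95% interval from 2.20 to 8.59, on a mean of 1.77 CPM in CYGB cells. Nearly all of these counts were of ENST00000645606, at 0 in the MOCK libraries. Reads shared by the 2 identifiers could have been counted to either. The ratio of the main DIABLO identifier to BIRC2, in CPM, was 0.431, 0.496 and 0.353 in MOCK and 1.27, 1.36 and 1.31 in CYGB libraries. This ratio restates the differences of the genes above and adds no separate result. Its DIABLO term was led in the CYGB libraries by transcripts that retain an intron or are annotated as decay targets.

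**Figure D3:**
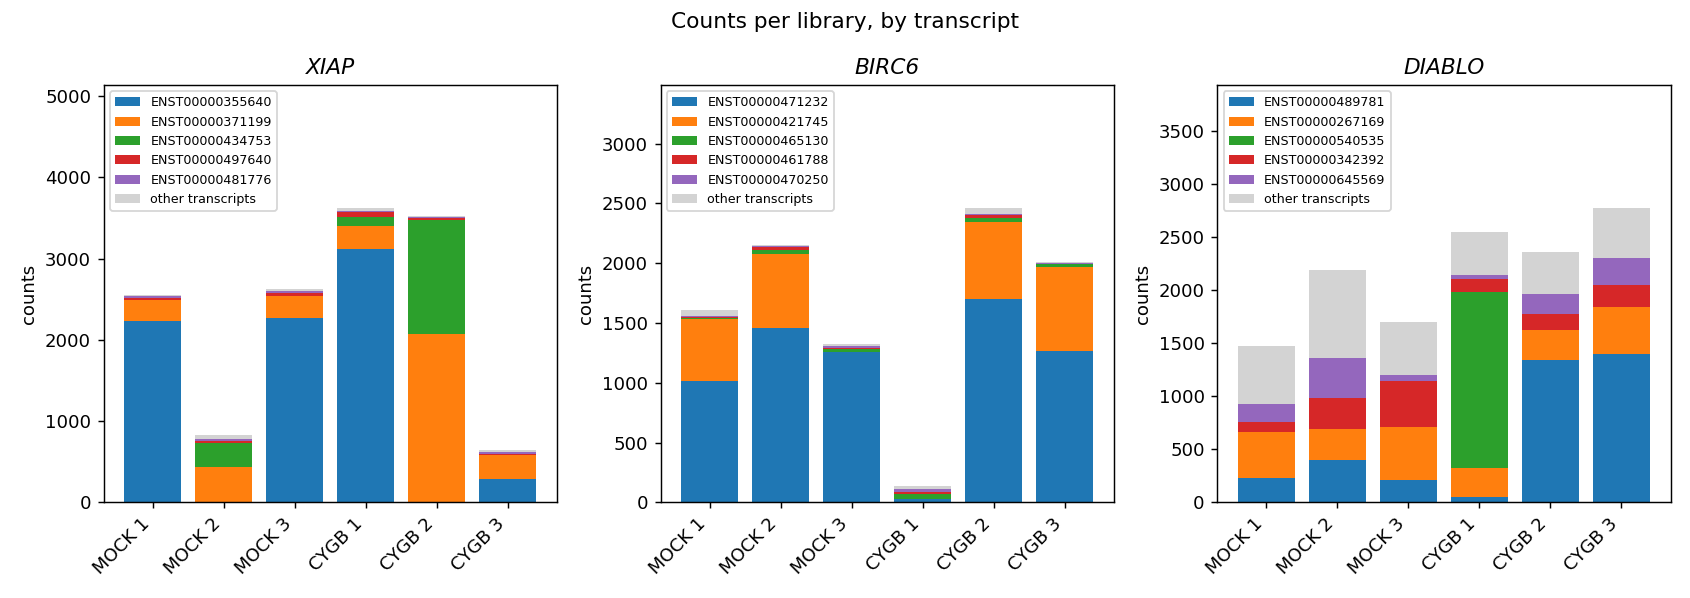
Raw counts of XIAP, BIRC6 and DIABLO (main identifier) in each library, stacked by transcript, with the 5 transcripts of the highest total in colour. XIAP is low in the second MOCK and the third CYGB library, BIRC6 is low in the first CYGB library with 137 counts, and DIABLO is led by ENST00000540535 in the first CYGB library.

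To compare the members with each other, counts were divided by transcript length and scaled to the same sum in every library (TPM). Over the 6 libraries BIRC5 was the most abundant, at 80.4 ± 14.5 TPM, followed by DIABLO at 53.3 ± 11.8 TPM and BIRC2 at 35.4 ± 12.2 TPM (SD, n = 6). BIRC6 at 16.1 ± 5.83 TPM and XIAP at 15.9 ± 6.10 TPM came next, then BIRC3 at 10.4 ± 1.91 TPM and NAIP at 6.95 ± 1.30 TPM. BIRC7 was at 0.476 TPM and the second DIABLO identifier at 0.921 TPM. These values depend on how the counts were divided among transcripts of unlike length. Most BIRC6 counts, for example, were of ENST00000471232, of 4226 bases, and not of the coding ENST00000421745, of 15703 bases.

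Of neighbours in this order, BIRC5 exceeded DIABLO, BIRC3 exceeded NAIP and NAIP exceeded BIRC7 in 6 of 6 libraries, although the ranges of the first and second of these pairs overlapped across libraries. BIRC6 exceeded XIAP in 3 of 6 libraries and XIAP exceeded BIRC3 in 4 of 6, so these neighbours did not differ beyond their spread. BIRC2 exceeded BIRC6 in 3 of 3 MOCK libraries, where its 38.7 to 51.6 TPM lay above the 14.9 to 18.4 TPM of BIRC6, and in 2 of 3 CYGB libraries, where the ranges overlapped. DIABLO exceeded BIRC2 in 1 of 3 MOCK libraries and in 3 of 3 CYGB libraries. BIRC2 was at 45.2 ± 6.44 TPM in MOCK and 25.6 ± 6.22 TPM in CYGB cells (SD, n = 3). The ratio of these means was 0.565, against 0.458 for the means in CPM. The first CYGB library, led by the shorter ENST00000532672, was at 32.6 TPM, above the 20.6 and 23.5 TPM of the other CYGB libraries.

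**Figure D4:**
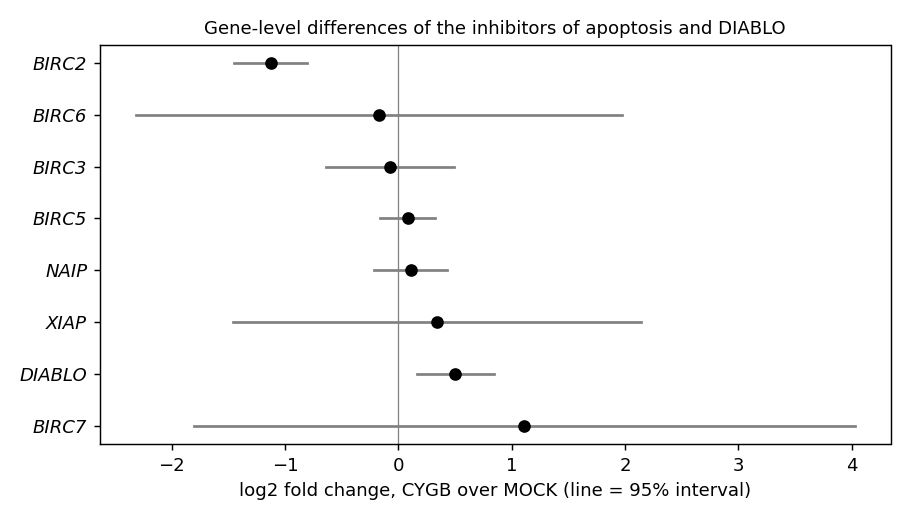
Log2 fold change of CYGB over MOCK for each gene, with its 95% interval from the edgeR quasi-likelihood fit of the gene-level counts. The intervals of BIRC2 (-1.45 to -0.81) and DIABLO (0.16 to 0.84) do not include 0, and those of BIRC6, XIAP and BIRC7 are wide.

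Partner genes of the IAPs, which are no members, were examined from 6 lists. The table held 71 such genes, of which 64 were tested, and 1 of them, RIPK1, was past the threshold of the methods, which is 1.56% against 0.565% of all genes. None had an adjusted p under 0.05 (edgeR quasi-likelihood test with Benjamini-Hochberg adjustment; 2, or 3.13%, had an unadjusted p under 0.05, and DESeq2 gave 1 an adjusted p under 0.05). The groups did not overlap for 7 of the 64, or 10.9%, close to the 11.0% of all genes. The median log2 fold change was -0.02 for the 64 genes and -0.01 for all genes tested, with quartiles at -0.19 and 0.17.

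Among the 26 genes of the TNF receptor complex and the cIAP substrates, 1 was lower and 0 were higher past the threshold of the methods, with a median of -0.03. RIPK1, the kinase that BIRC2 and BIRC3 ubiquitinate, held 47.8, 35.3 and 50.5 CPM in MOCK and 20.2, 19.7 and 10.3 CPM in CYGB libraries. It fell, without overlap, from 44.5 ± 8.11 to 16.7 ± 5.56 CPM (SD, n = 3). The log2 fold change was -1.41 with a standard error of 0.30, and the adjusted p was 0.963 with edgeR and 0.006 with DESeq2. The call was lost without the first MOCK library and without the third, at log2 fold changes between -1.57 and -1.15 over all left-out libraries.

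The transcripts of RIPK1 differed among the MOCK libraries, whereas the CYGB libraries were uniform. ENST00000380409 held 2209, 3 and 2558 counts in MOCK and 1, 1 and 1 in CYGB libraries. ENST00000259808 held 47, 1861 and 41 counts in MOCK and 1022, 998 and 542 in CYGB libraries. The second MOCK library thus resembled the CYGB libraries in the transcript that it held, and the sum remained higher there than in any CYGB library.

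The adaptors that recruit the cIAPs were not past the threshold. TRAF2, which binds both, had a log2 fold change of 0.33, with values from 9.52 to 32.6 CPM in MOCK and 17.6 to 31.9 CPM in CYGB libraries. TRAF3 was at 0.37 and MAP3K14, the kinase that the complex degrades, at 0.17. TRADD, the receptor adaptor, was the highest of the list at 0.59, from 8.93 ± 0.608 to 13.4 ± 3.16 CPM (SD, n = 3) without overlap, with an adjusted p of 0.963 (edgeR). TAB3, a subunit of the TAK1 kinase complex, was at -0.56 and overlapped between groups. CYLD, a deubiquitinase, at 0.14 and RNF31, the catalytic subunit of the linear ubiquitin ligase, at 0.18 were also higher in every CYGB than in every MOCK library.

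Of 8 genes tested among the other antagonists and regulators of the IAPs, 0 were past the threshold (edgeR; 0 had an unadjusted p under 0.05, and DESeq2 called 0), with a median of 0.03. HTRA2, a mitochondrial protease that cleaves IAPs, was at a log2 fold change of 0.07. The deubiquitinases USP11 at 0.19 and USP19 at 0.11 were the highest, and HUWE1, a ubiquitin ligase, at -0.43 and GSPT1, a translation release factor, at -0.07 were the lowest. AREL1, a ubiquitin ligase, was at 0.10. Its groups barely separated, with 112.747 CPM in the lowest CYGB library and 112.715 CPM in the highest MOCK library. HUWE1 held 274 to 589 CPM in MOCK and 251 to 321 CPM in CYGB libraries, which overlap. XAF1, an antagonist of XIAP, was not tested, with no counts under MOCK and 0, 13 and 0 counts under CYGB.

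The caspases and the apoptosome were near 0 on the log2 scale, with a median of -0.03 over 9 genes, 0 past the threshold (edgeR; 0 had an unadjusted p under 0.05, and DESeq2 called 0). The initiators CASP9 and CASP8 were at -0.06 and 0.08. CYCS, the cytochrome c that triggers the apoptosome, at -0.22 and APAF1, its scaffold, at -0.09 were the lowest.

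Of the death receptors and necroptosis genes, 10 of 12 were tested, with a median of 0.04 and 0 past the threshold (edgeR; 0 had an unadjusted p under 0.05, and DESeq2 called 0). The death receptor FAS was at -0.39, with 18.5 to 19.8 CPM in MOCK and 10.6 to 20.4 CPM in CYGB libraries. TNFRSF10B, a TRAIL receptor, was at -0.06, the necroptosis effector MLKL at 0.21 and TNFRSF12A, the TWEAK receptor, at 0.14. RIPK3, the kinase upstream of MLKL, had 0 counts in all 6 libraries, each of which allows up to 3 counts.

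The chromosomal passenger complex, the partners of BIRC5, had 0 of 5 genes past the threshold (edgeR; 0 had an unadjusted p under 0.05, and DESeq2 called 0), with a median of -0.02. AURKB, the kinase of the complex, was at -0.02, CDCA8 (borealin) at 0.03 and the related kinase AURKA at -0.12. AURKC, the Aurora kinase of germ cells, was under 1 CPM and was the one gene of the list without overlap, at -0.72. INCENP, the scaffold of the complex, held 327, 8194 and 192 counts in MOCK and 7297, 780 and 8629 in CYGB libraries. Its low and high libraries were mixed over both groups, and the log2 fold change of 0.97 had a standard error of 1.51. In each of the 3 high libraries, nearly all of the counts were of ENST00000278849.

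Among partners of NAIP, 6 of 10 genes were tested and 0 were past the threshold (edgeR; 0 had an unadjusted p under 0.05, and DESeq2 called 0), with a median of -0.01. NLRC4, which forms the inflammasome with NAIP, was at -0.21 on 1.06 to 2.25 CPM. The cytokine IL18 was at -0.38, the inflammatory caspase CASP4 at 0.11 and the sensor NLRP1 at 0.00.

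**Figure D5:**
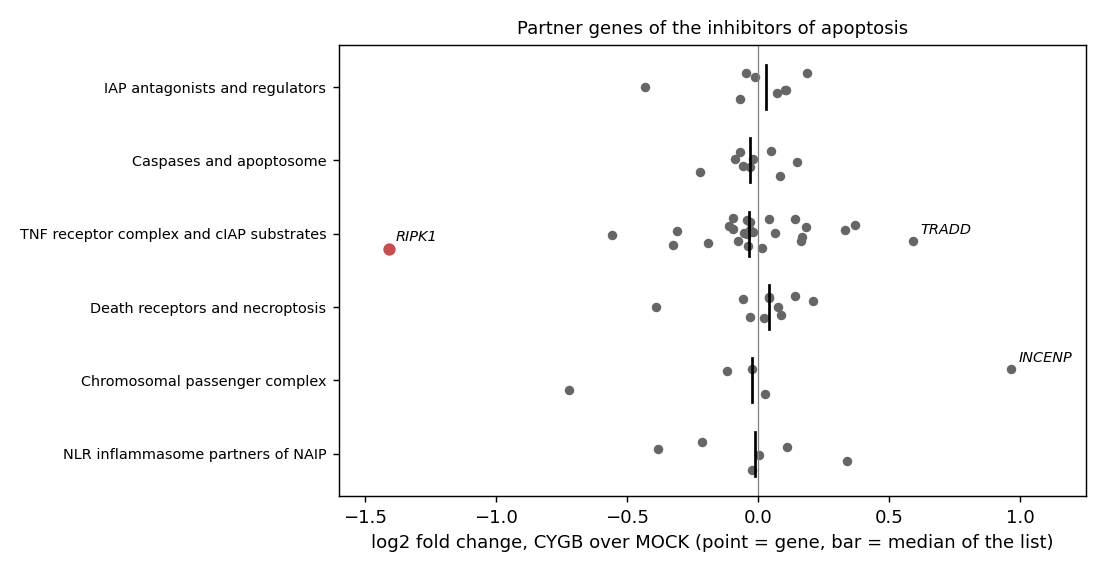
Log2 fold change of CYGB over MOCK for the 64 tested partner genes, by list; each point is a gene, the black bar is the median of the list, and the red point is past the threshold of the methods. RIPK1, at -1.41, is the one red point, and the medians lie between -0.03 and 0.04.

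The neighbours of BIRC2 on chromosome 11 were examined next. Within 500 kb, 25 other genes were in the table and 10 of them, BIRC3 among these, were tested. None was past the threshold (edgeR quasi-likelihood test; 1 had an unadjusted p under 0.05, and DESeq2 called 0). TMEM123, a membrane protein gene 17.7 kb downstream, held 679 ± 44.2 CPM in MOCK and 632 ± 73.3 CPM in CYGB cells (SD, n = 3), a log2 fold change of -0.10. YAP1, the Hippo pathway coactivator, 114 kb upstream, was at 0.30, with 44.0 CPM in the second MOCK library and 154 to 191 CPM in the other 5. MMP7, a matrix metalloproteinase, was low, at 1.39 ± 0.151 CPM in MOCK and 0.910 ± 0.136 CPM in CYGB cells, without overlap, at -0.61 with an adjusted p of 0.963 (edgeR). CEP126, a centrosomal protein gene, was at 0.07, and MMP20 and MMP1, further metalloproteinases, were at 0.48 and -0.24. AP001527.2 at -0.22, AP001830.1 at -0.68 and AP000851.1 at 0.54 were all near or under 1 CPM.

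The genes with the profile most like that of BIRC2 were looked for among 9946 genes averaging at least 10 CPM, by the root mean square distance between log2 profiles over the 6 libraries, each centred on its mean. SPRY4, an inhibitor of receptor tyrosine kinase signalling, was the nearest at 0.130, followed by FBXO27, an F-box protein, at 0.161 and MAPT, which encodes tau, at 0.166. Their log2 fold changes were -0.94, -1.16 and -0.89. The measure favours genes that are lower in CYGB cells, since BIRC2 is.

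In both groups the general epithelial markers KRT8, KRT18, KRT19, EPCAM, CDH1 and CLDN7 were at high levels. Of the intestinal markers, CDX2 was at 17.8 ± 1.31 CPM in MOCK and 17.2 ± 2.24 CPM in CYGB cells (SD, n = 3), and VIL1, CDH17 and LGALS4 were under 1 CPM. VIL1 was at 0.233 to 0.466 CPM in MOCK and 0.673 to 0.787 CPM in CYGB libraries, without overlap, and was not past the threshold; its part in the differences of the members was not tested. The 10 epithelial markers summed to 4279 to 4748 CPM in MOCK and 4363 to 4606 CPM in CYGB libraries. The 10 markers of other cell types summed to 45.1 to 51.4 CPM in MOCK and 48.4 to 54.6 CPM in CYGB libraries, nearly all of it COL1A1. Library totals ran from 58138393 to 66035266 counts, so the totals of the groups overlapped.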

How the data were processed

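RNA of 6 HCT116 libraries (3 MOCK, 3 CYGB) was sequenced by the authors, who deposited 1 table of raw counts per transcript, not normalized. The submitters' processing notes name HISAT, HISAT2, DESeq2 and hg19, without their roles, but of 151393 transcripts also in GENCODE 29 99.6% had the same position there, so coordinates are GRCh38. The counting tool, the division of reads among isoforms and the strand setting are not given in the sources used here. Transcripts without a gene (18.6 to 19.5% of counts) stayed out of library sizes and tests.

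Counts were summed per gene identifier, filtered with filterByExpr (minimum count 10), scaled by TMM and fitted with glmQLFit and glmQLFTest of edgeR 4.0.16 (R 4.3.3), CYGB against MOCK, without a replicate block; DESeq2 1.42.0 was an alternative. The same was done per transcript. P-values were adjusted over all features tested. The fitting script was tested on simulated data. Library totals were 58138393 to 66035266 counts. The 95% intervals are those of the fit and measure the spread between libraries; the limit given for a count of 0 covers counting error only.

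Same-numbered MOCK and CYGB libraries hardly deviated together, with correlations of 0.0294, 0.00521 and 0.0310. Those of the other pairs of a MOCK and a CYGB library ran from -0.0342 to 0.00567. The members and the lists of partner and marker genes were chosen with earlier results of these data known. Genes named were all members and all BIRC2 transcripts, other transcripts with at least 10% of a gene in a library, partner genes past the threshold or among the 2 highest and 2 lowest of a list at a mean of at least 1 CPM, a fixed set of central partners, the genes within 500 kb of BIRC2 and the 3 nearest profiles. Of the named partner genes, 2 are not reported here. Some transcripts under 10% were named after their values were seen, as were partner genes whose groups did not overlap. Alternatives were DESeq2 and its size factors, no filter, a mean of at least 50 counts, transcripts without a gene included, the replicate block, the most abundant transcript alone and each library left out. Figures were drawn with matplotlib 3.10.9.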

Additional observations from a re-analysis of the deposited data

How the results depend on the processing

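The log2 fold change of BIRC2 was between -1.22 and -1.04 when any 1 library was left out, and that of DIABLO was between 0.42 and 0.63. For ENST00000227758 alone, the most abundant BIRC2 transcript, it was -2.25, and for the most abundant DIABLO transcript 1.73. Leaving out 1 library gave -0.28 to 0.09 for BIRC3, -0.04 to 0.81 for XIAP, 0.01 to 0.12 for BIRC5, -0.71 to 0.37 for BIRC6, 0.52 to 2.53 for BIRC7, 0.04 to 0.18 for NAIP and 3.49 to 5.89 for the second DIABLO identifier, whose main transcript gave 9.46, a value set by the prior count as its MOCK libraries are at 0. It gave -3.71 to -1.77 for ENST00000227758, -0.065 to 0.49 for ENST00000527808, -0.10 to 1.03 for ENST00000534130 and -1.57 to -1.15 for RIPK1. Over all alternatives the adjusted p of RIPK1 ran from 0.006 (DESeq2) to 0.998.

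The 113 genes past the threshold were 263 with DESeq2, 62 when the mean had to reach 50 counts, 72 when transcripts lacking a gene were counted, and 124 to 177 when 1 library was dropped (177 without the third MOCK library). The 11 genes with an adjusted p under 0.05 were 108 with DESeq2, 6 with those transcripts counted and 6 to 14 with 1 library dropped. The 681 transcripts past the threshold were 1506 with DESeq2, 319 when the mean had to reach 50 counts and 961 to 1209 with 1 library dropped. The 10 transcripts with an adjusted p under 0.05 were 748 with DESeq2, 5 without a filter, 5 with transcripts lacking a gene counted and 0 to 7 with 1 library dropped (edgeR; 0 without the third CYGB library, where 3100 had an unadjusted p under 0.05). The 1 partner gene past the threshold was 0 to 1 with 1 library left out, and the 0 with an adjusted p under 0.05 were 1 with DESeq2. The cause was not tested.

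With the replicate number as a block, 78 genes, 291 transcripts and 0 partner genes were past the threshold. In this fit 0 genes and 0 transcripts had an adjusted p under 0.05 (edgeR, with 764 genes and 1814 transcripts at an unadjusted p under 0.05). BIRC2 was at -1.12. The pairing had little support in the deviations of the libraries, whose correlations were all near 0.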
